A study of Danio rerio with 9 samples.

Results

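The genes described here are the circadian clock genes of zebrafish and the transcription factors through which the clock acts on other genes. They were found by gene name alone, with a fixed list of name stems, and 47 of the 32520 listed genes matched: 6 in the activator arm (the *arntl*, *clock* and *npas2* genes), 16 in the repressor arm (the *per*, *cry* and *nr1d* genes), 6 ROR receptor genes, 11 PAR bZIP and *nfil3* genes, and 8 other feedback factors and kinases. No expression value enters the name rule. The family itself was chosen by what was known of these libraries, that is by measured differences between the 3 groups, so all 3 comparisons count as used in that choice and the counts of members below describe these libraries and are not independent evidence of a clock change. RNA sequencing of adult skeletal muscle covered 3 groups of male zebrafish with 3 libraries each, and each library pooled muscle of 2 fish. The KO-EX group was *bves* knockout fish that swam against a flow for 8 weeks in sessions of 1.5 h. The KO group was *bves* knockout fish without training, and the WT group was AB strain fish, also without training. All fish were selected at 12 months of age and kept under 14 h of light and 10 h of dark. The knockout was a frameshift made by CRISPR/Cas9 in the second exon of *bves*, which encodes a Popeye domain membrane protein that binds cAMP. Several mutant lines were made, and the sources used here do not say which allele was sequenced. There was no exercised WT group, so an effect of training in fish with intact *bves* was not measured.

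The vertebrate clock is a transcriptional feedback loop that runs in nearly every cell, muscle fibres included. Bmal proteins (named *arntl* in these tables) pair with Clock or Npas2 and switch on genes with E-box elements, among them *per*, *cry* and *nr1d*, and the Per and Cry proteins then block the pair that made them. Nr1d receptors repress the *bmal* genes and ROR receptors activate them, whereas Dbp, Tef and Hlf activate and Nfil3 represses genes with D-box elements. In zebrafish, tissues outside the eye and pineal gland respond to light directly, and *per2* and *cry1a* are among the genes that light induces.

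Libraries held 17422165 to 18860737 rounded counts, and 2 scales are used. Groups are compared by CPM, in which a count is divided by the library's total after TMM scaling has corrected that total for composition. Genes are compared by TPM, in which gene length is taken into account too. Fast muscle markers dominated every library, with a summed TPM of 52418 to 75176 over 5 genes, and the heart markers *myl7* and *nppa* and the photoreceptor gene *rho* were at 0 TPM in all 9 libraries. CPM of the targeted gene *bves* was 47.4, 11.4 and 49.6 in the libraries labelled KO-EX, 7.94, 17.5 and 6.70 in KO and 39.5, 57.2 and 43.8 in WT. Replicates 1 and 3 of the libraries labelled KO-EX were thus in the WT range for *bves*, and the KO-EX values of members described one by one are in most cases also given below with only its replicate 2 kept, a fit in which that single library is assumed to vary like the other groups. The hour at which muscle was taken is not given in the sources used here, and clock messages change over the day, so a difference between groups in the hour of sampling cannot be told apart from a difference between the groups themselves. In bulk muscle, fewer cells of a type and less RNA per cell cannot be told apart either. Many members are duplicated zebrafish genes (a and b), and how reads that match both copies were divided is not given.

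Of the 47 members, 40 had enough counts for the test, which was edgeR's two-sided quasi-likelihood test over the 14849 genes that passed its filter, with p-values adjusted by Benjamini-Hochberg over all of them. The 7 members left out were *nr1d4a*, *nr1d4b*, *rorb*, *rorc*, *hlfb*, *nfil3-3* and *nfil3-4*, none of which had more than 17 counts in any library. Their values still belong to the family. *hlfb*, a PAR bZIP factor, had 2, 4 and 1 counts in KO-EX, 17, 6 and 11 counts in KO and 1, 1 and 3 counts in WT, so its KO libraries were above the other 6. *rorb* was seen as 1 count in 1 KO-EX library. *rorc* had 3, 2 and 2 counts in KO-EX, 1, 4 and 1 counts in KO and 0, 0 and 2 counts in WT, and its deposited TPM values of up to 12.3 rest on these few reads (libraries with 2 counts each were given 0.06 and 3.42 TPM in KO-EX).

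Clock messages in this muscle were of low to moderate abundance. Summed over its 16 genes, the repressor arm was far more abundant than the activator arm with its 6 genes, while single genes of the 2 arms overlapped in level. Averaged over the 9 libraries, the most abundant tested members were *nr1d2a* with 29.9 TPM, *tefa* with 19.1 TPM and *bhlhe41* with 19.1 TPM. In the activator arm, mean levels ran only between 0.09 TPM for *clocka* and 3.33 TPM for *arntl1a*. Within the arms, the mean TPM of the repressor genes ran between 0.278 for *per1a* and 29.9 for *nr1d2a*, a wide range in which the *per* genes were mostly low. Summed over genes, the repressor arm was at 108, 95.7 and 91.3 TPM in KO-EX, 130, 123 and 134 TPM in KO and 78.5, 46.1 and 90.3 TPM in WT. The sums of the activator arm were 10.6, 13.4 and 12.2 TPM in KO-EX, 8.94, 10.7 and 10.7 TPM in KO and 7.87, 5.10 and 7.80 TPM in WT. The ratio of the 2 sums, which does not depend on how a library is scaled, was 10.2, 7.15 and 7.52 in KO-EX, 14.5, 11.6 and 12.6 in KO and 9.98, 9.04 and 11.6 in WT. Every KO library had a higher ratio than every KO-EX library, and KO overlapped WT only through KO replicate 2 and WT replicate 3. The separation from WT rested on *nr1d2a*, since without that gene the ratio was 6.55, 5.92 and 5.55 in KO-EX, 9.13, 6.79 and 8.17 in KO and 8.39, 7.08 and 8.74 in WT, and KO and WT overlapped throughout. TPM is not corrected for library composition, and WT replicate 2, which had the lowest TMM factor (0.763), was low in every one of these sums.

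**Figure D1:**
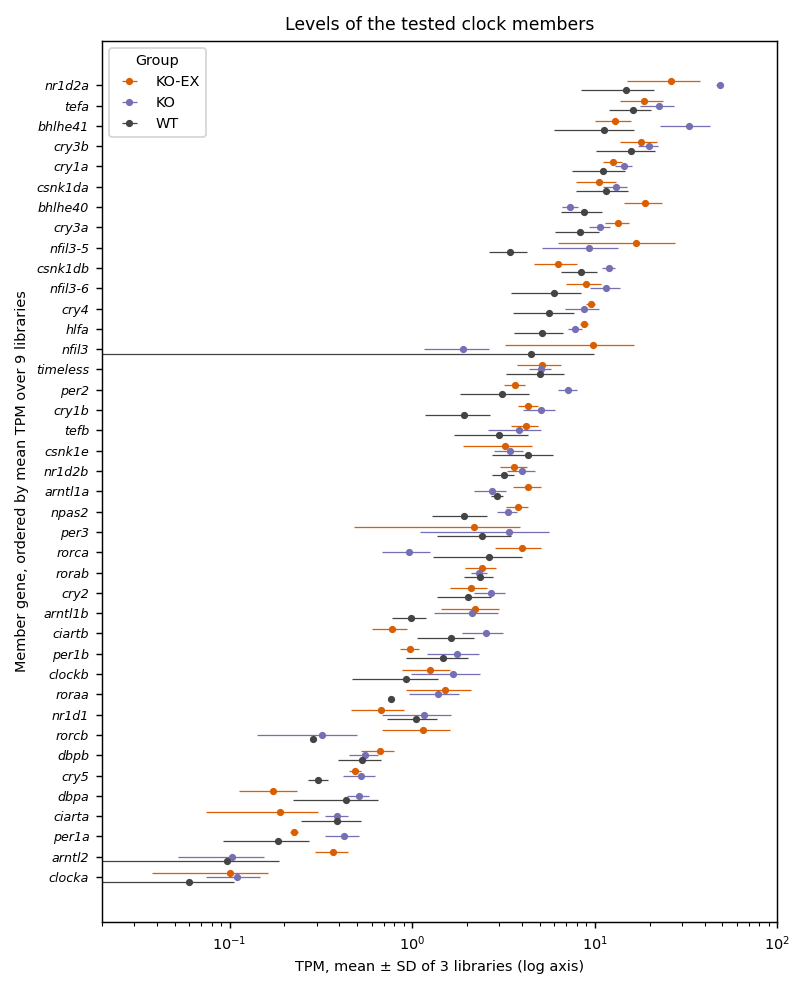
Mean TPM (log axis) of the 40 tested clock members in KO-EX, KO and WT muscle, with bars of 1 SD over 3 libraries and genes ordered by their mean over all 9 libraries. Bars that would reach 0 are cut at the left edge, *nr1d2a* stands at the top with 48.6 TPM in KO, and *clocka* is at the bottom.

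Relative to the KO group, the KO-EX group had 2 clock members called higher, *bhlhe40* and *rorca*, and 1 called lower, *ciartb*, where a call needs an adjusted p under 0.05 and a fold change above 2. Among all tested genes 0.653% were called higher and 0.748% lower in that comparison. Relative to the WT group, KO-EX had 3 members called higher, *cry1b*, *nfil3-5* and *rorcb* (2.46% of all tested genes were called higher), and 1 called lower, again *ciartb* (1.66% of all tested genes were called lower). KO had 2 members called higher than WT, *cry1b* and *per2* (0.714% of all tested genes), and 0 called lower (0.343% of all tested genes). At an unadjusted edgeR p under 0.05 in either direction, 15 of the 40 members passed in KO-EX against KO, beside 15.3% of all genes. In KO-EX against WT 17 passed, beside 25.1%, and in KO against WT 15, beside 16.9%. In KO against WT DESeq2 called *cry1b*, *per1a*, *per2*, *nr1d2a*, *nfil3-5* and *bhlhe41* higher and 1 member, *rorca*, lower. It called 1.75% of all genes higher and 1.22% lower in that comparison. KO libraries stand in both KO-EX against KO and KO against WT, and WT libraries stand in both comparisons with WT, so the values of a gene in these comparisons are not independent.

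**Figure D2:**
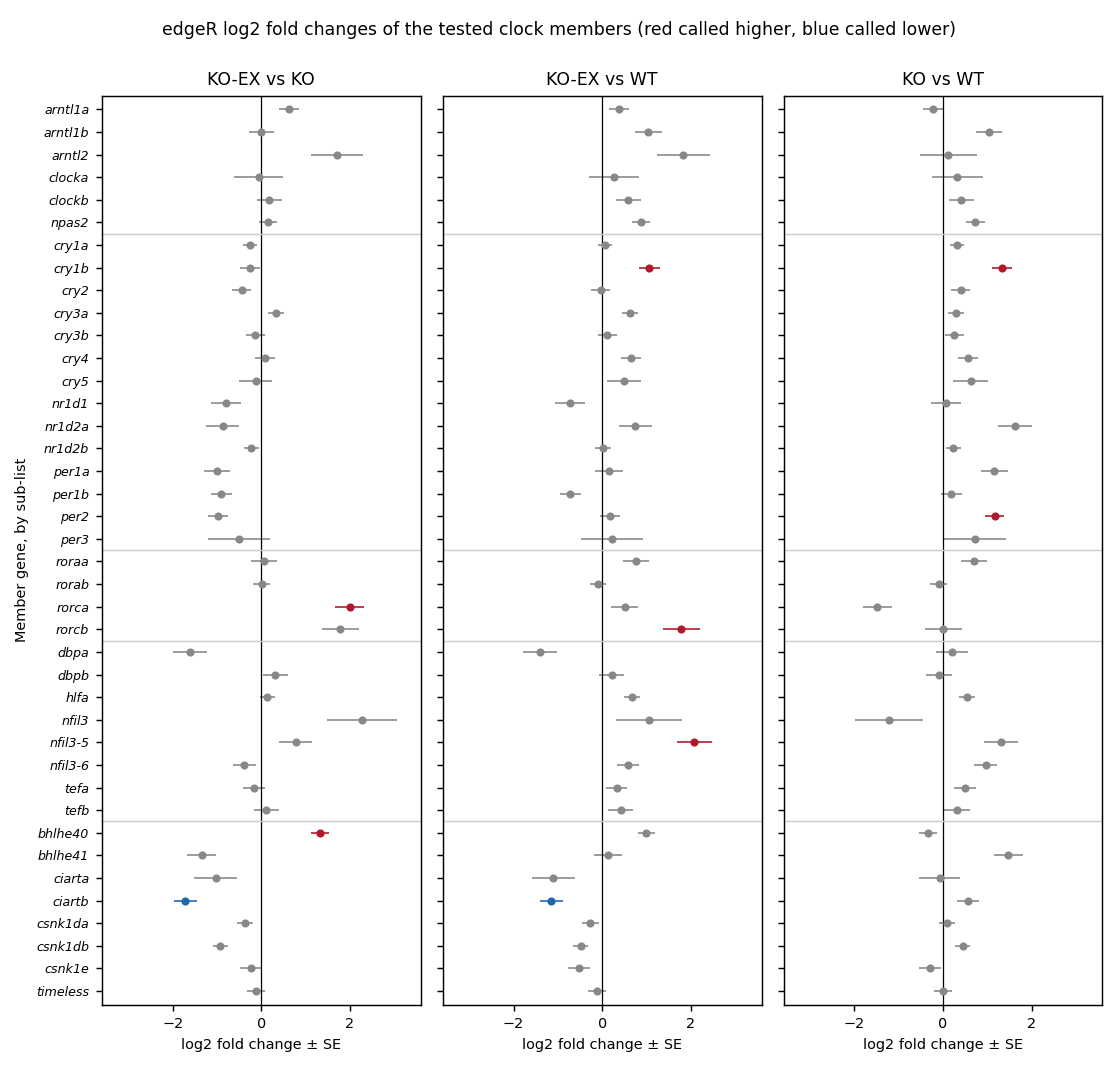
Log2 fold change with its SE from the edgeR fit for the 40 tested members (rows, grouped as activator arm, repressor arm, ROR receptors, PAR bZIP and *nfil3* genes, and other factors) in KO-EX against KO, KO-EX against WT and KO against WT. Red points were called higher and blue points lower, and in KO against WT all 14 repressor arm points lie right of 0.

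In the activator arm edgeR called none of the 6 genes in any comparison, and most values were higher in the KO-EX and KO groups than in WT. At an unadjusted p under 0.05, 2 of the 6 passed in KO-EX against KO (15.3% of all tested genes did), 3 in KO-EX against WT (25.1% of all genes) and 2 in KO against WT, and DESeq2 called 1, *arntl1b*, higher in KO-EX than in WT. The median log2 fold change of the 6 genes was 0.16 for KO-EX against KO, 0.74 for KO-EX against WT and 0.37 for KO against WT, with 5, 6 and 5 of the 6 values positive, while the median of all tested genes was 0.01, 0.01 and −0.03. With 1 library left out, the KO-EX against KO median moved to as low as 0.04 (without KO-EX replicate 3), 0.07 (without KO replicate 1) and as high as 0.33 (without KO replicate 2), and it was 0.28 without KO-EX replicate 1. The KO against WT median was 0.13 without KO replicate 2 and 0.13 without WT replicate 2, where 3 of 6 values were positive, and 0.64 without WT replicate 1 and 0.59 without WT replicate 3. With only KO-EX replicate 2 kept, the medians were 0.34 against KO and 0.71 against WT. *arntl1a*, a Bmal gene and the most abundant of the arm, had CPM values of 10.8, 9.71 and 7.99 in KO-EX, 5.31, 5.82 and 7.46 in KO and 5.99, 9.04 and 6.84 in WT. Its KO-EX libraries were all above the KO libraries, but the difference on the log2 scale, 0.62 (SE 0.227, edgeR adjusted p = 0.211), was no call, and KO-EX overlapped WT. The *arntl1a* value against KO was 0.63 with only KO-EX replicate 2 kept (adjusted p = 0.548).

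The remaining activators are described with values chosen after they were seen. *npas2*, which encodes the partner that can stand in for Clock, had 31.0, 23.2 and 35.3 CPM in KO-EX, 24.6, 32.4 and 23.8 CPM in KO and 17.8, 14.6 and 16.1 CPM in WT. All 6 libraries labelled KO-EX or KO were above all WT libraries. The log2 difference of *npas2* was 0.88 for KO-EX against WT (SE 0.208, edgeR adjusted p = 0.0374), which passed the p threshold and not the fold threshold, and 0.73 for KO against WT (SE 0.208, adjusted p = 0.117). The *npas2* value against WT was 0.50 with only KO-EX replicate 2 kept (adjusted p = 0.409). *arntl1b*, a second *bmal1* copy, had 3.39, 5.63 and 5.33 CPM in KO-EX, 3.38, 4.38 and 6.59 CPM in KO and 2.21, 2.48 and 2.28 CPM in WT. Again KO-EX and KO lay above WT without overlap, at 1.04 against WT in each (adjusted p = 0.0652 for KO-EX and 0.117 for KO). With KO-EX replicate 2 alone the *arntl1b* value against WT was 1.26 (adjusted p = 0.182). *arntl2*, the *bmal2* gene, had 1.5, 1.22 and 1.14 CPM in KO-EX, 0.268, 0.634 and 0.272 CPM in KO and 0.288, 0.0753 and 0.658 CPM in WT. On the TMM scale it was the activator that set KO-EX apart from the other 6 libraries, at a log2 fold change of 1.71 against KO (SE 0.588, adjusted p = 0.181) and 1.83 against WT (SE 0.592, adjusted p = 0.0925), on few counts. With total-count scaling the KO-EX libraries of *arntl1a* were above the other 6 as well. Keeping KO-EX replicate 2 alone gave *arntl2* values of 1.61 against KO (adjusted p = 0.571) and 1.74 against WT (adjusted p = 0.368). *clocka* and *clockb* overlapped between all groups, with log2 fold changes between −0.06 and 0.59.

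The repressor arm had most of its values highest in unexercised KO muscle. Genes were placed in this arm by name, and the repressor activity of each was not tested. In KO against WT all 14 tested genes of the arm had a positive log2 fold change, with a median of 0.48. Of these, 2, *cry1b* and *per2*, were called (0.714% of all tested genes were called higher). Among all 14849 tested genes, 7082 were positive in that comparison. All 14 values were also positive with DESeq2 and with total-count or median-of-ratios scaling, and 12 to 14 were positive with each library left out in turn. These refits reuse the libraries by which the family was chosen and add no independent evidence. In KO-EX against KO, 12 of the 14 values were negative, with a median of −0.35. There edgeR made 0 calls (0.653% of all tested genes were called higher and 0.748% lower). At an unadjusted edgeR p under 0.05, 5 of the 14 passed (15.3% of all tested genes), and DESeq2 called 1, *per2*, lower (1.56% of all genes). In KO-EX against WT 11 of the 14 were positive, with a median of 0.17 and 1 call, *cry1b* higher (2.46% of all tested genes). Leaving out replicates 1 and 3 of KO-EX moved these medians to −0.56 and 0.01. Of the 14849 tested genes, 7526 were positive in KO-EX against KO and 7489 in KO-EX against WT.

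*per2* (ENSDARG00000034503), the light-responsive Period gene, had CPM values of 26.0, 16.9 and 20.2 in KO-EX, 40.1, 38.9 and 45.9 in KO and 18.8, 14.1 and 22.8 in WT. The 3 KO libraries were above all 6 others, and KO-EX and WT overlapped. *per2* was 2.24-fold higher in KO than in WT (log2 fold change 1.16, SE 0.225, edgeR adjusted p = 0.0391). For KO-EX against KO it was −0.99 (SE 0.224, adjusted p = 0.0557), just short of both thresholds, and for KO-EX against WT 0.18 (SE 0.224, adjusted p = 0.659). The call in KO against WT was lost without any of KO replicates 1, 2 or 3, WT replicates 1 or 2 or KO-EX replicate 3 (adjusted p up to 0.128), and with total-count scaling (adjusted p = 0.105). With only KO-EX replicate 2 kept, KO-EX against KO was −1.32 (adjusted p = 0.192).

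Cryptochromes were placed in the repressor arm by name, and some of them are partners of the Per proteins in blocking the activators. *cry1b* (ENSDARG00000011583) had CPM values of 15.7, 10.1 and 14.3 in KO-EX, 16.0, 13.1 and 19.1 in KO and 6.57, 5.20 and 7.34 in WT. The libraries labelled KO-EX and KO were all above WT and overlapped each other. *cry1b* was 2.52-fold higher in KO than in WT (log2 fold change 1.33, SE 0.234, edgeR adjusted p = 0.0269) and 2.09-fold higher in KO-EX than in WT (1.07, SE 0.233, adjusted p = 0.0291). For KO-EX against KO the value was −0.27 (SE 0.227, adjusted p = 0.663). It was the single member called in both comparisons with WT in the higher direction, and those comparisons share the WT libraries. *cry1b* against WT was 0.64 with only KO-EX replicate 2 kept (adjusted p = 0.347). The call in KO against WT was lost without KO replicates 1 or 3 or WT replicates 1 or 2 (adjusted p up to 0.104), and that in KO-EX against WT without KO-EX replicates 1 or 3, KO replicate 1 or WT replicates 1 or 2 (adjusted p up to 0.0972). Total-count scaling also ended both calls (adjusted p = 0.0631 for KO and 0.0562 for KO-EX, each against WT). The other 6 tested *cry* genes had log2 fold changes of 0.25 to 0.63 for KO against WT and none was called. Among them *cry1a*, the light-induced copy, was tight within groups, at 42.0, 40.2 and 39.0 CPM in KO-EX, 49.7, 45.1 and 49.9 CPM in KO and 40.5, 35.0 and 40.4 CPM in WT, so that KO stood above the rest by a small margin (0.32 against WT, SE 0.162, adjusted p = 0.337).

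*nr1d2a*, a Rev-erb receptor that represses *bmal* genes, was the most abundant clock member and had the largest log2 fold change of the repressor arm in KO against WT. Its CPM was 169.8, 57.6 and 97 in KO-EX, 189, 221 and 186 in KO and 45, 60.4 and 87.4 in WT. The KO libraries lay close together above all others, while the KO-EX libraries spread over 2.95-fold and overlapped WT. On the log2 scale the difference was 1.63 for KO against WT (SE 0.375, edgeR adjusted p = 0.0719), −0.88 for KO-EX against KO (SE 0.368, adjusted p = 0.279) and 0.75 for KO-EX against WT (SE 0.368, adjusted p = 0.23), and none was a call. KO-EX replicate 1 was the highest of its group, and with only KO-EX replicate 2 kept the value for KO-EX against WT was −0.18 (adjusted p = 0.848). That same fit, and the fits without KO-EX replicate 1 or 2, called *nr1d2a* in KO against WT (adjusted p = 0.0352 with both replicates 1 and 3 left out). DESeq2 called it there as well. *nr1d1* and *nr1d2b*, the other tested Rev-erb genes, had values of 0.07 and 0.24 in KO against WT (adjusted p = 0.942 and 0.511).

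The other Period genes are given with values chosen after they were seen. *per1a* had 1.89, 1.45 and 1.58 CPM in KO-EX, 3.92, 2.83 and 3.10 CPM in KO and 1.73, 0.904 and 1.72 CPM in WT, the same layout as *per2* at a lower level. The *per1a* difference was 1.15 for KO against WT (SE 0.306, edgeR adjusted p = 0.099) and −1.0 for KO-EX against KO (SE 0.303, adjusted p = 0.131, and −1.19 with KO-EX replicate 2 alone). DESeq2 called *per1a* higher in KO than in WT. *per1b* had another layout, with 8.95, 6.14 and 7.01 CPM in KO-EX below both 18.3, 11.1 and 12 CPM in KO and 14.2, 11.1 and 11.1 CPM in WT. The *per1b* values were −0.90 for KO-EX against KO (SE 0.240, adjusted p = 0.0927) and −0.72 for KO-EX against WT (SE 0.240, adjusted p = 0.0983). Keeping KO-EX replicate 2 alone gave *per1b* values of −1.18 against KO (adjusted p = 0.29) and −1.0 against WT (adjusted p = 0.237). *per3* could not be placed in any order, since its libraries ran from 5.81 to 28.9 CPM in KO-EX, from 8.66 to 45.4 CPM in KO and from 9.88 to 21.3 CPM in WT.

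**Figure D3:**
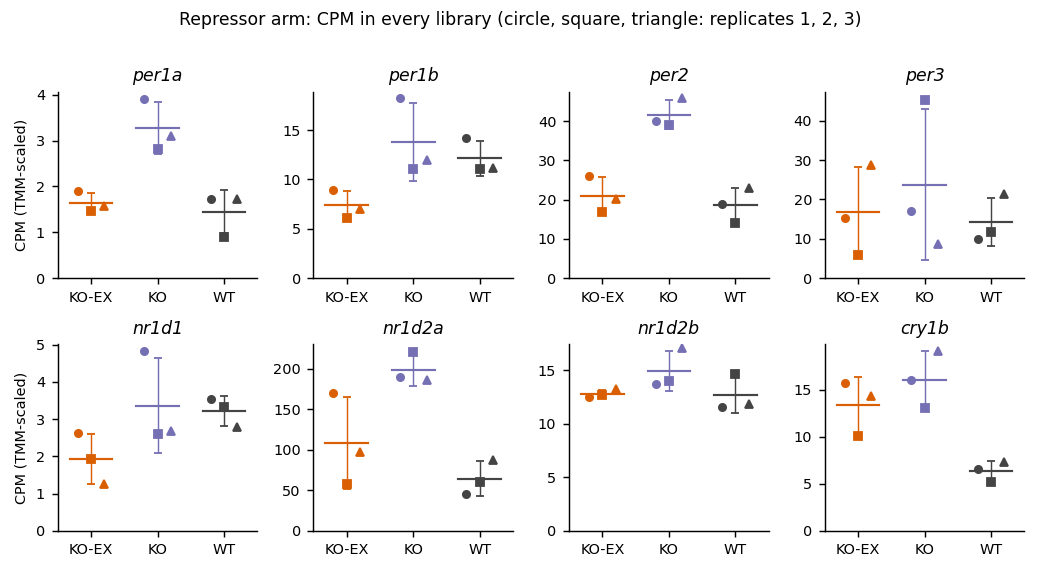
CPM (TMM-scaled) of 8 repressor arm genes in every library, with KO-EX, KO and WT side by side, symbols for replicates 1, 2 and 3, a line at the mean and bars of 1 SD. The 3 KO points of *per1a*, *per2* and *nr1d2a* lie above the 6 others, the WT points of *cry1b* lie below the 6 others, and the *per3* points overlap across groups.

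ROR receptors, which compete with the Rev-erb receptors on *bmal* promoters, included the largest called change of the family in KO-EX against KO. *rorca* (ENSDARG00000057231) had CPM values of 5.73, 7.17 and 9.57 in KO-EX, 1.5, 1.67 and 2.45 in KO and 4.94, 3.46 and 7.29 in WT. The KO libraries were below all 6 others. *rorca* was 3.98-fold higher in KO-EX than in KO (log2 fold change 1.99, SE 0.330, edgeR adjusted p = 0.0205), and for KO against WT the value was −1.48 (SE 0.329, adjusted p = 0.0639). *rorca* against KO was 1.91 with only KO-EX replicate 2 kept (adjusted p = 0.163), close in size to the fit of all libraries. The *rorca* call was lost without KO-EX replicate 3 or any of the 3 KO replicates (adjusted p up to 0.107).

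*rorcb* (ENSDARG00000017780), the other copy, did not share that layout. It had CPM values of 11.2, 13.8 and 7.23 in KO-EX, 4.45, 1.27 and 3.65 in KO and 2.45, 4.22 and 2.79 in WT, so KO-EX stood above both unexercised groups and these overlapped. *rorcb* was 3.44-fold higher in KO-EX than in WT (log2 fold change 1.78, SE 0.418, edgeR adjusted p = 0.0374), against KO it was 1.78 (SE 0.416, adjusted p = 0.0664), and KO against WT was 0.01 (SE 0.421, adjusted p = 0.996). DESeq2 called *rorcb* higher in KO-EX than in KO and than in WT. *rorcb* against WT was 2.12 with only KO-EX replicate 2 kept (adjusted p = 0.126). The call was made in 2 of the 9 fits with a library left out, those without KO replicate 1 or KO replicate 2, and the adjusted p reached 0.121 in the others. *roraa* and *rorab*, the other tested receptors of the family, were not called, with 0.77 and −0.09 for KO-EX against WT.

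*nfil3-5* (ENSDARG00000094965), one of several zebrafish genes named after the D-box repressor Nfil3, had the largest called change of the family in any comparison. Its CPM was 42.6, 98.4 and 43.9 in KO-EX, 51.1, 22 and 34.9 in KO and 15.2, 17.0 and 11.7 in WT. All 6 libraries labelled KO-EX or KO were above WT, and KO-EX overlapped KO. KO against WT was 1.30 on the log2 scale (SE 0.384, edgeR adjusted p = 0.129), no call by edgeR, while DESeq2 called it higher. *nfil3-5* was 4.23-fold higher in KO-EX than in WT (log2 fold change 2.08, SE 0.391, edgeR adjusted p = 0.0202). It was called in 7 of the 9 fits with a library left out, all but those without WT replicate 1 or 2 (adjusted p up to 0.0692), and with only KO-EX replicate 2 kept it was 2.73 (adjusted p = 0.0289). KO-EX replicate 2 was the highest library, and without it the value against WT was the smallest of the 9 fits, 1.57. The gene named *nfil3* itself had 9.56, 27.4 and 13.5 CPM in KO-EX, 4.88, 2.65 and 2.89 CPM in KO and 17.4, 4.97 and 1.67 CPM in WT. It varied 10.4-fold within WT, and edgeR called none of its differences, while DESeq2 called it higher in KO-EX than in KO. *nfil3-6*, chosen after its values were seen, was called by neither method. Its log2 fold change was 0.96 for KO against WT (SE 0.256, edgeR adjusted p = 0.0982), without overlap. For KO-EX against KO it was −0.38 (SE 0.253, adjusted p = 0.539), opposite in sign to *nfil3-5*.

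The PAR bZIP activators, which bind the same D-box elements, were not called by edgeR in any comparison. DESeq2 called *dbpa* lower in KO-EX against both other groups. *tefa*, the most abundant, had 29.7, 47.9 and 44.4 CPM in KO-EX, 45.9, 57.3 and 34.0 CPM in KO and 33.7, 34.6 and 28.8 CPM in WT. KO-EX overlapped both other groups, and the log2 fold changes were −0.17 for KO-EX against KO (SE 0.240, edgeR adjusted p = 0.82), 0.33 for KO-EX against WT (SE 0.241, adjusted p = 0.421) and 0.50 for KO against WT (SE 0.241, adjusted p = 0.319). *hlfa*, chosen after its values were seen, had 29.3, 21.6 and 24.9 CPM in KO-EX, 24, 24.7 and 20.5 CPM in KO and 16.3, 14.9 and 16.4 CPM in WT. KO-EX and KO were above WT without overlap, at 0.67 for KO-EX (SE 0.175, adjusted p = 0.0504, and 0.42 with KO-EX replicate 2 alone, adjusted p = 0.432) and 0.54 for KO (SE 0.175, adjusted p = 0.16). *dbpa*, also chosen after its values were seen, was low throughout, with 0.389, 0.610 and 0.489 CPM in KO-EX, 1.55, 1.79 and 1.25 CPM in KO and 1.44, 0.829 and 1.67 CPM in WT. It was lower in every KO-EX library than in any other (−1.61 against KO, adjusted p = 0.0687, and −1.40 against WT, adjusted p = 0.0598), while its copy *dbpb* overlapped between all groups. Keeping KO-EX replicate 2 alone gave *dbpa* values of −1.34 against KO (adjusted p = 0.458) and −1.13 against WT (adjusted p = 0.375).

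Among the other feedback factors, the paralogs *bhlhe40* and *bhlhe41*, which encode E-box repressors, had opposite layouts. *bhlhe40* (ENSDARG00000004060) had CPM values of 46.5, 41.2 and 66.7 in KO-EX, 21.3, 19.4 and 20.6 in KO and 26.6, 26.5 and 24.1 in WT. KO-EX was above all 6 other libraries and KO was below all 6 others. *bhlhe40* was 2.52-fold higher in KO-EX than in KO (log2 fold change 1.33, SE 0.202, edgeR adjusted p = 0.0144), and against WT it was 1.00 (SE 0.201, adjusted p = 0.0228), with a fold of 1.998 that fell just short of the threshold. KO against WT was −0.33 (SE 0.200, adjusted p = 0.412). The *bhlhe40* call against KO was lost without KO replicate 1 or 3 (adjusted p up to 0.0795), and with only KO-EX replicate 2 kept the value was 0.99 (adjusted p = 0.174).

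*bhlhe41* was by contrast highest in KO. Its CPM was 54.1, 27.9 and 40.1 in KO-EX, 132, 77.1 and 102 in KO and 28.4, 30.6 and 52.4 in WT, with KO above all 6 others and KO-EX overlapping WT. On the log2 scale the difference was −1.35 for KO-EX against KO (SE 0.320, edgeR adjusted p = 0.0665) and 1.48 for KO against WT (SE 0.322, adjusted p = 0.0584), sizes above the fold threshold that missed the p threshold in edgeR. DESeq2 called *bhlhe41* lower in KO-EX than in KO and higher in KO than in WT. With edgeR it was called in KO against WT in 3 of the 9 fits with a library left out, and in KO-EX against KO in 1. KO-EX against WT was 0.13 (SE 0.316, adjusted p = 0.83), and with only KO-EX replicate 2 kept it was −0.43 (adjusted p = 0.64).

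*ciartb* (ENSDARG00000088171), which encodes a repressor of the Bmal and Clock pair, was the member called lower in KO-EX against both other groups. It had CPM values of 3.17, 2.25 and 3.97 in KO-EX, 11.4, 7.84 and 11.7 in KO and 7.19, 5.95 and 7.59 in WT. The 3 groups did not overlap on the TMM scale, in the order KO, WT and KO-EX. With total-count scaling the KO libraries were not above all others, while the KO-EX libraries stayed below all others. *ciartb* fell by 1.72 on the log2 scale in KO-EX against KO (SE 0.258, edgeR adjusted p = 0.0138) and by 1.15 against WT (SE 0.257, adjusted p = 0.0316), and was 0.57 in KO against WT (SE 0.248, adjusted p = 0.27). The call against KO was lost without KO replicate 1 or 3 (adjusted p up to 0.0739). The call against WT was lost in 6 of the 9 fits with a library left out, those without any of the 3 KO-EX replicates, KO replicate 1 or WT replicates 1 or 2 (adjusted p up to 0.0888), and with total-count scaling (adjusted p = 0.081). With only KO-EX replicate 2 kept, the *ciartb* values were −2.21 against KO and −1.64 against WT. The copy *ciarta*, with at most 26 counts in any library, was called by neither edgeR nor DESeq2. Its KO-EX values were −1.03 against KO (SE 0.486, edgeR adjusted p = 0.345) and −1.11 against WT (SE 0.486, adjusted p = 0.185), with overlap in both.

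The casein kinases that phosphorylate Per proteins and mark them for degradation were not called by edgeR or DESeq2 in any comparison. *csnk1db*, chosen after its values were seen, had 16.6, 19.6 and 17.0 CPM in KO-EX, 35.3, 36.3 and 29.9 CPM in KO and 27.1, 25.1 and 22.3 CPM in WT. Like *ciartb* it separated the 3 groups without overlap on the TMM scale, in the order KO, WT and KO-EX. With total-count scaling its KO libraries were not above all others, nor its KO-EX libraries below all others. Its log2 fold change for KO-EX against KO was −0.93 (SE 0.171, edgeR adjusted p = 0.0262), which passed the p threshold and not the fold threshold, and it was −0.80 with KO-EX replicate 2 alone (adjusted p = 0.338). *csnk1da*, *csnk1e* and *timeless*, whose vertebrate product mainly serves DNA replication forks, had log2 fold changes between −0.53 and 0.10 over the 3 comparisons.

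**Figure D4:**
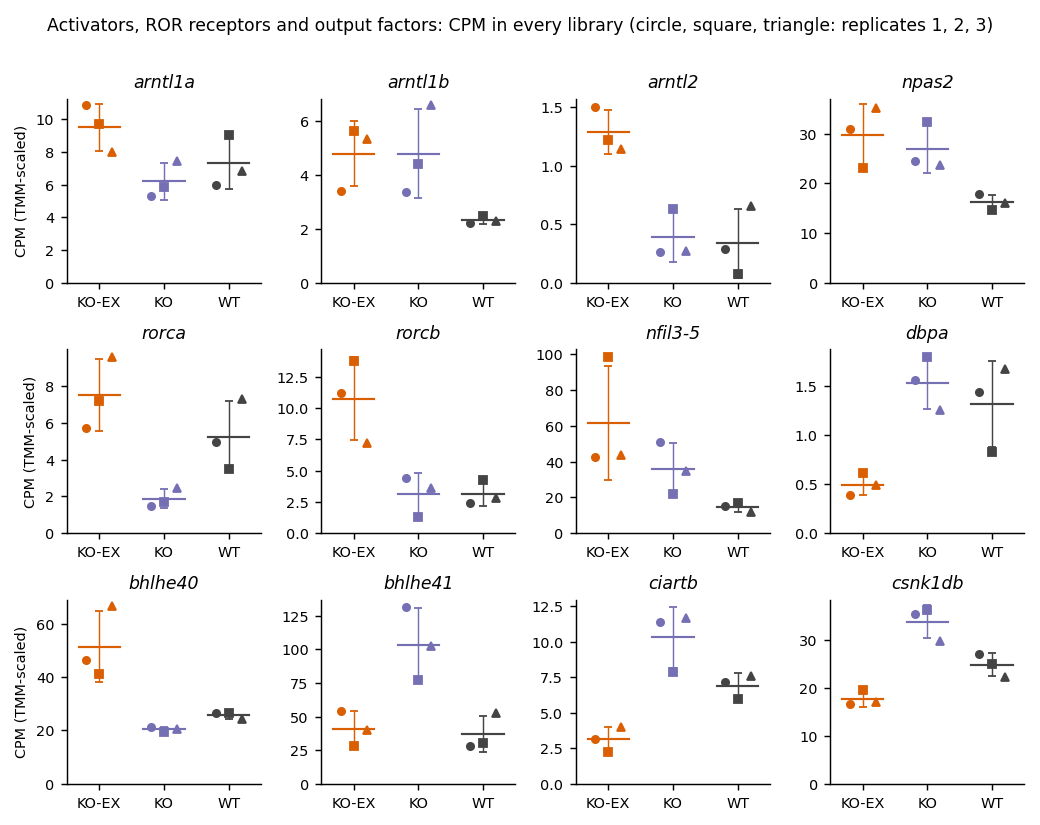
CPM (TMM-scaled) of 12 activator, ROR, D-box and other clock genes in every library, with KO-EX, KO and WT side by side, symbols for replicates 1, 2 and 3, a line at the mean and bars of 1 SD. The KO-EX points of *bhlhe40* and *rorcb* lie above the 6 others, those of *ciartb* and *dbpa* below them, and the KO points of *rorca* below the 6 others.

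A view of each group against the 6 other libraries, chosen after the values were seen, gathers these layouts. In KO, 8 of the 40 tested members had all 3 libraries above the 6 others (20%, beside 2.96% of all tested genes): *per1a*, *per2*, *cry1a*, *cry2*, *nr1d2a*, *bhlhe41*, *ciartb* and *csnk1db*. These 8 comprise 5 repressor genes, no activator gene, 2 other E-box repressors and a kinase of Per. With total-count scaling the number was 4 (10%, beside 1.72% of all genes), namely *per1a*, *per2*, *nr1d2a* and *bhlhe41*. KO was below the 6 others for 2 members, *rorca* and *bhlhe40* (5%, beside 2.36%), and with total-count scaling for *rorca* only (2.5%, beside 2.44%).

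The KO-EX libraries stood above the 6 others for 4 members, *arntl2*, *cry3a*, *rorcb* and *bhlhe40* (10%, beside 6.24% of all genes), and below them for another 4, *per1b*, *dbpa*, *ciartb* and *csnk1db* (10%, beside 4.94%). With total-count scaling KO-EX was above the 6 others for 6 members, *arntl1a*, *arntl2*, *cry3a*, *rorcb*, *hlfa* and *bhlhe40* (15%, beside 7.76%). It was below them for 1, *ciartb* (2.5%, beside 2.01%). The WT libraries were below the 6 labelled KO-EX or KO for 5 members, *arntl1b*, *npas2*, *cry1b*, *hlfa* and *nfil3-5* (12.5%, beside 5.27%), and above them for 0 members (beside 4.54%). Pairwise, 14 members were higher in every KO library than in any WT library (11.2% of all genes were) and 2 lower (10.2%). In KO-EX against KO, 7 members were higher without overlap (12.2% of all genes) and 12 lower (10.8%), and in KO-EX against WT 11 were higher (15%) and 6 lower (13%). Because the family was proposed with these results in view, nothing further is read from these shares.

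**Figure D5:**
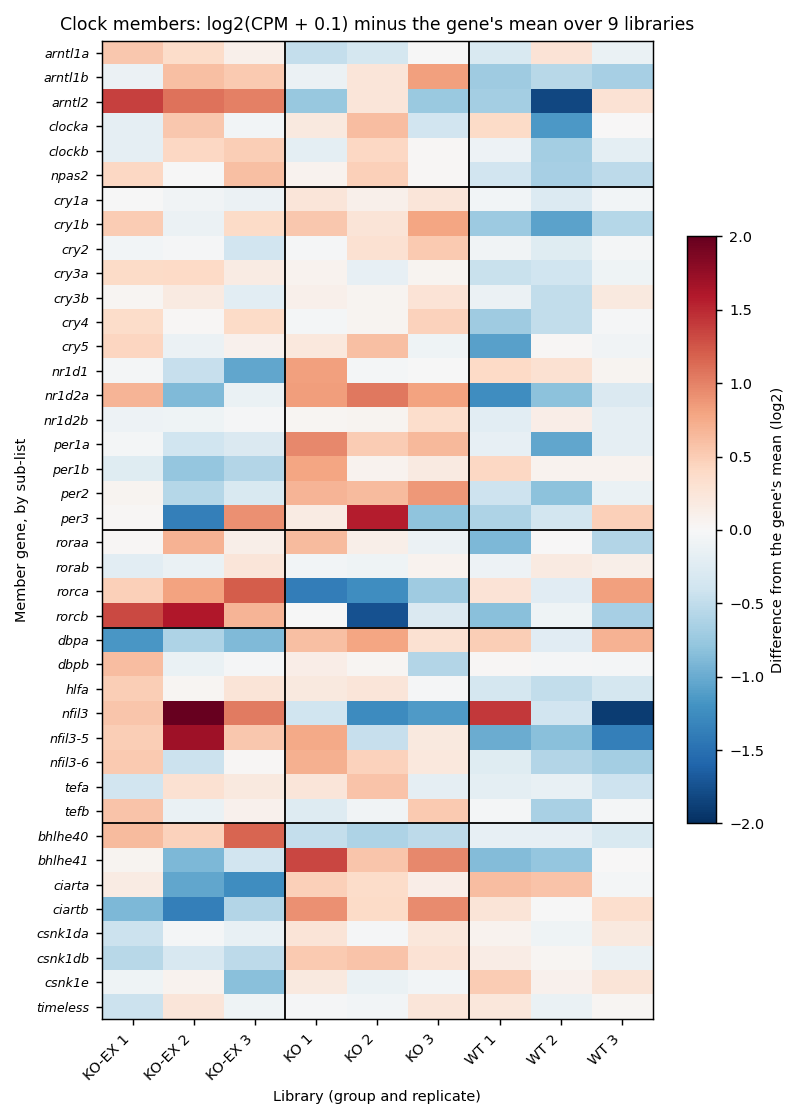
Difference of log2(CPM + 0.1) from the gene's mean over 9 libraries (colour scale, −2 to 2) for the 40 tested members in rows and the KO-EX, KO and WT libraries in columns. The *per1a*, *per2*, *nr1d2a* and *bhlhe41* rows are red in all 3 KO columns and the *rorca* row is blue there. The *per3* row changes colour within groups, and the *nfil3* row changes colour within WT only.

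By the median, replicates of a group spread about as widely for clock members as for all tested genes in KO-EX and KO, and less widely in WT. Spreads above 2-fold were less frequent among members in each group. The median ratio of the highest to the lowest library within a group was 1.60 in KO-EX, 1.44 in KO and 1.44 in WT for the 40 members, beside 1.51, 1.46 and 1.65 for all tested genes. That ratio was above 2 in 6 members in KO-EX (15%, beside 24.7% of all tested genes), 5 in KO (12.5%, beside 22.7%) and 7 in WT (17.5%, beside 32.5%).

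Genes around the clock were counted from 3 lists. For turnover and modification of clock proteins, such as the F-box and kinase genes, 27 of 29 names were found and 24 genes tested, and edgeR called 0 in any comparison (8, 10 and 3 at an unadjusted p under 0.05 in KO-EX against KO, KO-EX against WT and KO against WT, where 15.3%, 25.1% and 16.9% of all tested genes passed). DESeq2 called *usp2b*, a deubiquitinase gene, lower in KO-EX than in KO and higher in KO than in WT. All 4 light-induced genes of the list were tested and edgeR called 0 (0, 2 and 2 at an unadjusted p under 0.05), while DESeq2 called *neil1*, a DNA repair gene, lower in KO-EX than in WT. The median log2 fold change of these 4 genes was −0.08 in KO-EX against KO, −0.10 in KO-EX against WT and −0.41 in KO against WT. Of 16 names for clock-linked outputs, 15 were found and 14 tested. Calls by edgeR were 1 lower in KO-EX against KO, where 0.748% of all tested genes were called lower. There was also 1 lower in KO-EX against WT (1.66% of all tested genes) and 1 higher in KO against WT (0.714%). At an unadjusted p under 0.05, 4, 3 and 7 of the 14 passed. DESeq2 called *nocta* and *fkbp5* lower in KO-EX than in KO, as it did 1.56% of all genes. In KO-EX against WT it called *myod1* lower and *fbxo32* higher (3.49% and 3.55% of all genes). In KO against WT it called *nocta*, *fkbp5* and *ucp3* higher and *noctb* lower (1.75% and 1.22% of all genes). *fbxo32* had 428, 94.4 and 88.7 CPM in KO-EX, 144, 46.0 and 71.0 CPM in KO and 50.9, 14.3 and 17.2 CPM in WT. KO-EX replicate 1 was thus far above the other libraries, and edgeR did not call *fbxo32* in KO-EX against WT (2.89, SE 0.797, adjusted p = 0.0709). *nocta*, which encodes nocturnin, an enzyme whose message cycles strongly in many tissues, had 13.4, 8.06 and 10.2 CPM in KO-EX, 47.5, 39.3 and 36.7 CPM in KO and 10.7, 12.6 and 16.9 CPM in WT. Its KO libraries stood well above the 6 others, as for *per2*. The KO libraries of *nr1d2a* were also above the 6 others, but by a small margin (186 CPM in KO replicate 3, 169.8 CPM in KO-EX replicate 1). *nocta* fell by 1.96 on the log2 scale in KO-EX against KO (SE 0.242, edgeR adjusted p = 0.00748) and was 1.62 higher on that scale in KO than in WT (SE 0.240, adjusted p = 0.0138). The *nocta* call in KO-EX against KO was kept in all 9 fits with a library left out, and with only KO-EX replicate 2 kept the value was −2.37 (adjusted p = 0.0862). The call in KO against WT was lost without KO replicate 1 or WT replicates 1 or 2 (adjusted p up to 0.0626). Its paralog *noctb* had the other layout, with 9.17, 10.9 and 12.7 CPM in KO-EX, 5.26, 8.13 and 5.99 CPM in KO and 11.0, 11.8 and 18.2 CPM in WT. KO was below the 6 others, at −1.08 against WT (SE 0.253, edgeR adjusted p = 0.0742), and KO-EX against KO was 0.76 (SE 0.253, adjusted p = 0.169). *myod1*, a myogenic factor with clock control in mammalian muscle, had 10, 20.2 and 17.9 CPM in KO-EX, 31.4, 17.4 and 26.7 CPM in KO and 35.3, 54.3 and 34.0 CPM in WT, and was called lower in KO-EX than in WT (−1.36, SE 0.312, adjusted p = 0.0342). *myod1* against WT was −1.05 with only KO-EX replicate 2 kept (adjusted p = 0.265).

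Summed markers of fat cells were higher in every KO-EX library than in any other, while those of red blood cells overlapped between KO-EX and KO. The summed TPM of 3 fat cell markers was 461 to 564 in KO-EX, 304 to 413 in KO and 255 to 380 in WT, nearly all of it *fabp11a*, while *plin1* was at 0 TPM in every library. The third marker, *adipoqa*, overlapped between all groups. It had 8.08, 7.23 and 8.91 TPM in KO-EX, 9.51, 6.2 and 11.5 TPM in KO and 5.2, 3.3 and 12.7 TPM in WT. Red blood cell markers, 4 names on 5 listed genes, summed to 1413 to 1982 TPM in KO-EX, 1076 to 1538 TPM in KO and 850 to 1156 TPM in WT. Taken singly, *alas2* (10.7, 8.27 and 7.51 TPM in KO-EX) was higher in every KO-EX library than in any other. So was a gene listed as *hbba1* (341, 319 and 449 TPM in KO-EX). *hbaa1*, *hbba2* and the other gene listed as *hbba1* overlapped between KO-EX and KO. The 4 skin keratinocyte markers summed to 239, 177 and 74.3 TPM in KO-EX, 84.8, 55.3 and 81.0 TPM in KO and 143, 46.9 and 71.7 TPM in WT. Among them *krt5* was at 96.2, 36.5 and 10.7 TPM in KO-EX, 0.38, 0.57 and 2.16 TPM in KO and 37.4, 0.95 and 13.0 TPM in WT, so KO-EX was above KO and overlapped WT. The other markers of that list did not separate KO-EX from KO. *krt4* had 45.5, 63.2 and 37.9 TPM in KO-EX and 42.3, 38.6 and 55.2 TPM in KO. *krt91* had 97.5, 76.9 and 25.5 TPM in KO-EX and 41.9, 16.1 and 23.5 TPM in KO, and *cyt1* was at most 0.56 TPM in any library. The 3 slow muscle markers summed to 537 to 859 TPM in KO-EX, 674 to 892 TPM in KO and 454 to 1434 TPM in WT, so the groups overlapped. The 3 endothelial markers summed to 27.1 to 35.7 TPM in KO-EX, 38.1 to 43.7 TPM in KO and 17.6 to 39.8 TPM in WT. KO-EX was below KO through *kdrl*, since *cdh5* and *pecam1* overlapped. Nerve and glia markers summed to 140 to 189 TPM in KO-EX, 124 to 205 TPM in KO and 112 to 130 TPM in WT. Summed leukocyte markers and summed bone and scale markers overlapped between all groups. Taken singly, *ptprc* and *col10a1a* were lower in every WT library than in any library labelled KO-EX or KO. *bglap* was higher in every WT library than in any KO library, and WT overlapped KO-EX for it. The other markers of these lists overlapped between all groups. The share of counts from the 13 mitochondrial genes was 16.2% to 23.4% in KO-EX, 11.8% to 14.1% in KO and 13.6% to 16.2% in WT. The part of these cells and shares in the values of *rorca*, *rorcb*, *bhlhe40*, *ciartb*, *nfil3-5* and *cry1b* was not tested. The pineal and photoreceptor markers, from tissues with high clock output, summed to at most 0.46 TPM in any library.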

How the data were processed

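RNA of zebrafish skeletal muscle was sequenced as poly(A)-selected, strand-specific libraries, 3 each of KO-EX, KO and WT, with the group of each taken from the sample labels. The authors deposited estimated counts for each Ensembl gene, not normalized, and TPM values, their normalization for gene length and library size. Per the submitters' processing notes fastp, HISAT2, StringTie and RSEM were used, and the genome build and annotation are not given in the sources used here. Columns with the authors' own fold changes and p-values were not used. The KO libraries stood in both deposited tables, and 0 of their values differed.

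Counts were rounded and tested with edgeR 4.0.16 (R 4.3.3) by glmQLFit with robust estimation and glmQLFTest, two-sided, on all 9 libraries, with TMM scaling, filterByExpr (14849 genes kept) and Benjamini-Hochberg adjustment over those genes. Calls needed an adjusted p under 0.05 and a fold change above 2. The SE of a log2 fold change came from its size and the F statistic. The labels do not say that libraries came from separate batches or days, and p-values measure the spread between these pools of fish. Libraries had 17422165 to 18860737 rounded counts, and the common biological coefficient of variation was 0.295. The steps were tested on simulated data. Where 3 libraries meet 3, an exact permutation test cannot go below 0.1.

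The members and lists were chosen with earlier results of these data known. Named with full values were members called in any comparison and the member of highest mean TPM in each group of genes, and others are marked. All 47 members matched a RefSeq gene list, 44 by symbol and 3 (*arntl1a*, *arntl1b*, *arntl2*) by synonym. Alternatives were DESeq2 1.42.0, other scaling, filters and thresholds, fits of 6 libraries, a replicate block and libraries left out.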

Additional observations from a re-analysis of the deposited data

How the results depend on the processing

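Calls changed with the processing. The 9 called values of the named members lost their call in 53 of 162 refits and kept their sign in all of them, and the 24 uncalled values gained a call in 29 of 432 refits and changed sign in 13. DESeq2 called 4 members higher and 4 lower in KO-EX against KO, 2 lower in KO-EX against WT, and 6 higher and 1 lower in KO against WT, where it called 1.46% of all genes higher and 1.56% lower, 3.49% lower, and 1.75% higher and 1.22% lower. Without a low-count filter, 2 were lower in KO-EX against KO (0.511% of all genes). In KO against WT 4 were higher (0.592%) and 1 lower (0.337%). Total-count scaling moved the median of all genes to 0.11 in both KO-EX comparisons. It left 0 lower in KO-EX against WT (0.761% of all genes) and 0 higher in KO against WT (0.33%). The 6 libraries alone gave 0 lower in KO-EX against WT (0.838% of all genes). With no fold threshold, 2 were lower in KO-EX against KO (0.916% of all genes) and 5 higher in KO-EX against WT (3.06%). With KO-EX replicates 1 and 3 left out, a single KO-EX library remained, and its calls are not counted here. The cause of these shifts was not tested.

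With each library left out in turn, KO-EX against KO had 0 to 2 members higher and 0 to 2 lower. Among all tested genes, 0.013% to 0.613% were called higher and 0.117% to 0.71% lower there. KO-EX against WT had 0 to 4 members higher and 0 to 1 lower (0.607% to 2.38% and 0.37% to 3.66% of all genes). KO against WT had 0 to 4 higher (0.163% to 0.913% of all genes) and 0 lower throughout (0.052% to 0.625%). The calls of KO-EX against KO were all lost without KO replicate 1 or KO replicate 3, those higher in KO-EX against WT without WT replicate 1 or 2, and those of KO against WT without KO replicates 1 or 3 or WT replicates 1 or 2. Calls among all tested genes were also fewer in each of these fits than in the fit of all libraries.

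Sign changes touched uncalled values only. *tefa* in KO-EX against KO was 0.019 without KO-EX replicate 1, 0.024 without KO replicate 2 (range −0.34 to 0.024 over the libraries left out) and 0.051 with KO-EX replicates 1 and 3 left out. In KO-EX against WT, that last setting gave −0.18 for *nr1d2a*, −0.16 for *per2* and −0.43 for *bhlhe41*, and *bhlhe41* was −0.12 without KO-EX replicate 1 and −0.037 without WT replicate 1 (range −0.12 to 0.46). *rorcb* in KO against WT was −0.0010 with DESeq2, −0.33 without KO replicate 1, −0.11 without KO replicate 3, −0.15 without WT replicate 1 and −0.075 without WT replicate 3 (range −0.33 to 0.39).

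Replicate numbers were not used as pairs in the main fit, since the libraries came from different fish. The sources used here state no link between same-numbered libraries, and whether they shared a step of handling is not known. Deviations of same-numbered libraries correlated between −0.281 and −0.036 across genes for KO-EX and KO, between −0.032 and −0.007 for KO-EX and WT, and between −0.013 and 0.156 for KO and WT. With the replicate block, 1 member, *rorca*, was called lower in KO against WT, and every other count was within 1.5 times. With 3 pools of 2 fish a group and *clocka*, *dbpa* and *arntl2* under 2 CPM, depth limits the precision of the low members.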
